A study of Mus musculus with 6 samples.

Results

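The genes described here are 38 genes of the autophagy machinery, named by symbol and ordered by the step at which their proteins act. They were taken from the FPKM table of MLL-AF9 leukemia cells by name, with entries that share a symbol summed, and 37 of the 38 averaged 1 FPKM or more across the 6 samples, as did 11130 genes in all. FPKM are fragment numbers normalized to transcript length and sequencing depth. The remaining gene, Vmp1, stood in the table only in an entry joined with Mir21 and was left out. The study asked what DS-5272, an inhibitor of the binding of MDM2 to p53, changed in leukemia cells in vivo. In the study's model, c-Kit+ bone marrow progenitors were transduced with a retrovirus carrying the fusion oncogene MLL-AF9 and were passaged repeatedly through recipient mice. Both groups were leukemic C57BL/6J mice bearing these MLL-AF9 cells, and 3 mice had received vehicle and 3 had received DS-5272 by mouth at 80 mg/kg. Leukemia cells were sorted from bone marrow 24 h after the dose, and every mouse gave 1 library. The age of the mice was not stated in the sources used here, nor was the number of separately transduced lines behind the 6 mice.

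Autophagy encloses cytoplasm in a double membrane, the autophagosome, and delivers it to the lysosome for breakdown. The ULK1 kinase complex starts the process, a class III PI3-kinase complex containing Beclin 1 marks the membrane with PI3P, ATG9 and ATG2 proteins supply lipid, and a pair of conjugation systems attach LC3 and GABARAP proteins to the growing membrane, where cargo receptors bind them. Autophagy genes are expressed in nearly all cells, blood progenitors and maturing granulocytes included. Messenger levels alone do not report the flux through the pathway.

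Of the 37 genes, 17 rose after DS-5272 and 0 fell (limma on log2(FPKM + 1), two-sided, Benjamini-Hochberg adjusted p under 0.05). The 17 are 45.9% of the genes, where 24.2% of all genes tested were called higher and 22.0% were called lower. At an unadjusted p under 0.05, limma gave 20 higher and 0 lower, beside 3286 higher and 2901 lower of the 11130 genes tested. The median difference, DS-5272 minus vehicle on the log2(FPKM + 1) scale, was 0.48 for the autophagy genes and 0.04 for all genes tested. Positive differences numbered 5875 among the 11130 genes tested and 31 among the 37. In 21 genes all DS-5272 values lay above all vehicle values, against 32.1% of all genes, and in 2 genes, Atg16l2 and Optn, they all lay below, against 29.7%. With 3 mice in each group, exact permutation of the labels for 1 gene could reach no p below 0.1.

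**Figure D1:**
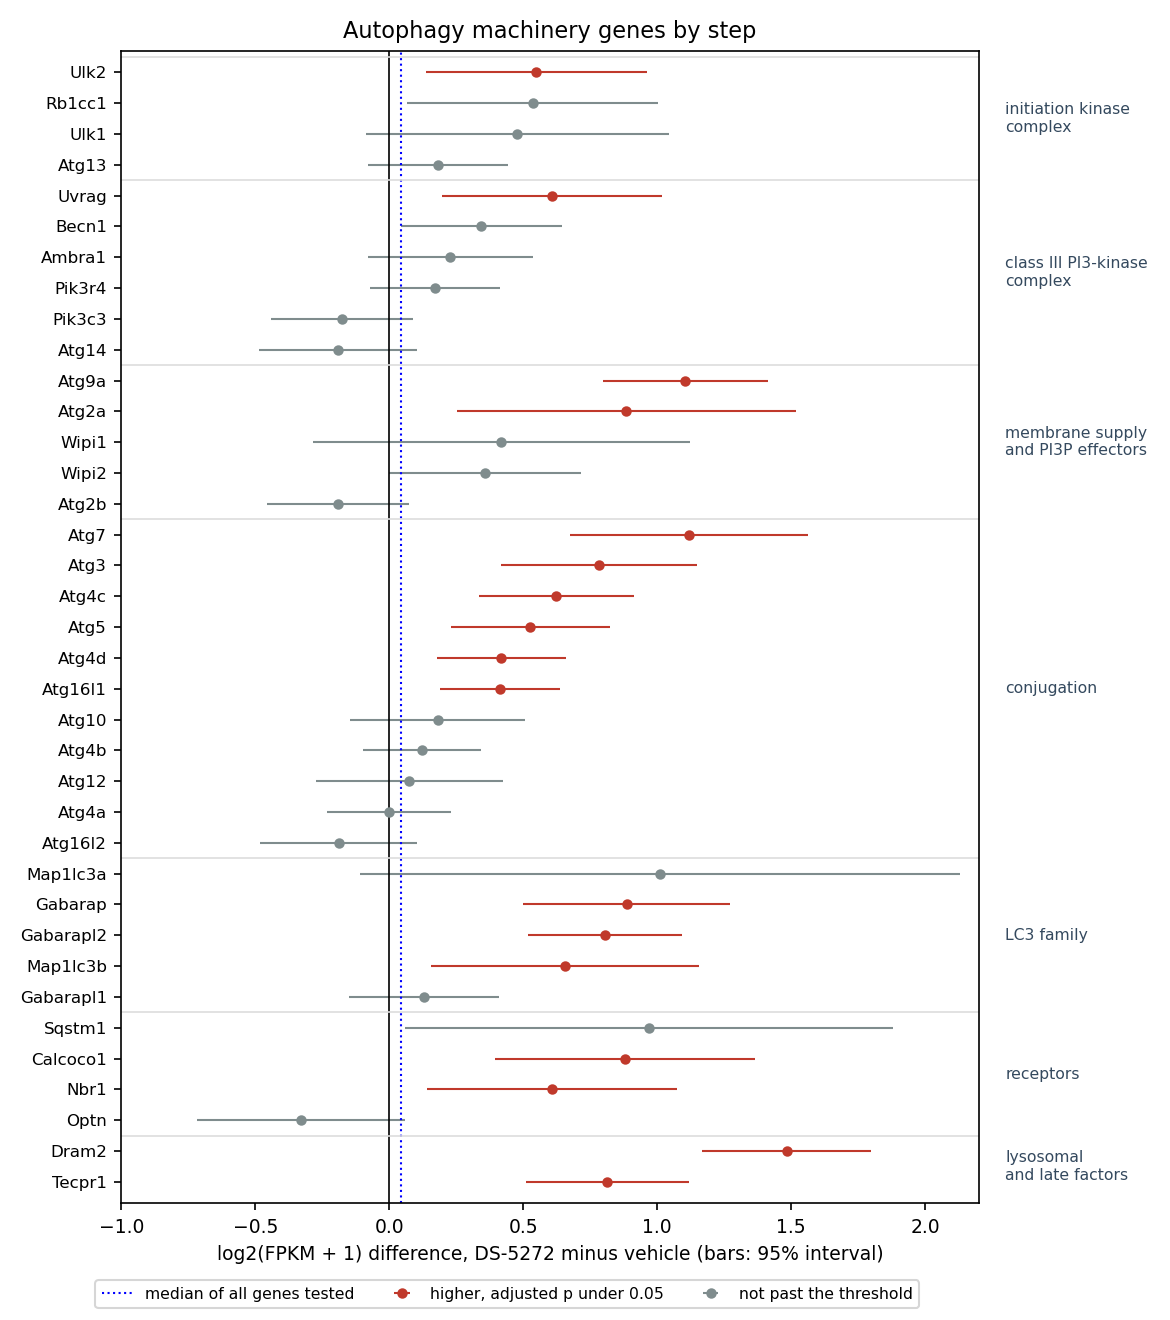
Difference in log2(FPKM + 1), DS-5272 minus vehicle, for each of the 37 genes by step, with its 95% interval from limma, red where the adjusted p was under 0.05. Dram2, at 1.48, lies farthest to the right, the intervals of most PI3-kinase genes cross 0, and the dotted line at 0.04 is the median of all genes tested.

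The libraries differed in composition between the groups. The FPKM total was 445316 to 501241 in the vehicle mice and 499229 to 661184 in the DS-5272 mice, and depth, estimated from the smallest steps between low FPKM values, was about 34700000 to 43000000 fragments in the vehicle libraries and 23200000 to 32100000 in the DS-5272 libraries. A level of 1 FPKM then stood for about 43.0 fragments per kilobase in the deepest library, vehicle replicate 1, and about 23.2 in the shallowest, DS-5272 replicate 3. The leukemia marker Meis1 was at 66.1 to 80.5 FPKM in the vehicle mice and 69.2 to 109.9 FPKM in the DS-5272 mice. Of the 10 leukemia cell markers listed, 7 had an entry of their own, and Hoxa9, Hoxa10 and Spi1 had none. Of the 7, 2 rose and 2 fell, or 28.6% each, near the 24.2% and 22.0% of all genes. Itgam, a myeloid integrin, was at 139.7 to 190.4 against 530.2 to 1087 FPKM, and Ptprc, the CD45 gene, at 66.0 to 84.5 against 140.8 to 214.5 FPKM. Kit, a receptor of immature blood cells, was at 30.5 to 45.04 against 4.94 to 12.1 FPKM, and Mpo, an enzyme of early granulocytes, at 140.4 to 325.1 against 3.25 to 12.2 FPKM. Meis1, Myb and Cebpa did not pass. Cdkn1a, a p53 target that arrests the cell cycle, was at 14.8, 28.1 and 25.5 FPKM in the vehicle mice and 32.3, 117 and 485 FPKM in the DS-5272 mice, and Mdm2, another p53 target, was at 27.1, 36.3 and 40.0 against 42.6, 78.8 and 209.6 FPKM. Neither passed the test (limma adjusted p = 0.0611 and 0.0733), and both passed with the replicate number as a block (limma adjusted p = 0.0137 and 0.0148). The labels do not say what a replicate number marks, so the block, here and below, assumes a pairing.

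Markers of other cells moved with the treatment as well. The summed level of 12 genes of maturing neutrophils was 466 to 2633 FPKM in the vehicle mice and 5179.8 to 21607 FPKM in the DS-5272 mice. In 10 of the 12, or 83.3%, all DS-5272 values lay above all vehicle values, against 32.1% of all genes tested. Macrophage markers, 11 of 12 of them in the table, summed to 48.1 to 94.4 against 110.4 to 393.9 FPKM, and erythroid markers, 7 of 11 in the table, to 2.53 to 4.70 against 12.8 to 146.7 FPKM, both highest in DS-5272 replicate 1. Most of the macrophage sum in every vehicle mouse was Vcam1, at 36.6, 64.1 and 82.8 FPKM against 142.9, 74.8 and 85.7 FPKM. Vcam1 did not pass (limma adjusted p = 0.125), while 3 of the 10 macrophage markers tested, C1qa, C1qb and C1qc, were called higher. That share, 30%, was near the 24.2% of all genes. The study reported VCAM-1 protein raised by DS-5272 in c-Kit+ cells. Several of these markers, such as Axl, Mrc1 and Hba-a2, averaged under 1 FPKM in the vehicle mice. Megakaryocyte markers summed to 2.002 to 2.34 against 5.58 to 7.47 FPKM, while of the stromal and endothelial markers only Pecam1, at 26.4 to 58.8 against 68.3 to 109.1 FPKM, and Col1a1 exceeded 1 FPKM in any mouse. The T and NK cell lists stayed low, with T cell markers at 2.02 to 2.62 against 1.65 to 4.89 FPKM and NK cell markers at 0.528 to 0.966 against 1.91 to 3.75 FPKM. The defining markers Cd3e, Ncr1 and Cdh5 were at or near 0 in every sample, with a highest value of 0.354 FPKM. The part of these cells, or of maturation of the leukemia cells themselves, in the differences described here was not tested. In sorted bulk cells, a changed share of a cell type and a changed RNA level per cell cannot be told apart.

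At the first step, 1 of the 4 genes of the initiation complex rose, close to the 24.2% of all genes, and the median difference was 0.51. Ulk2, 1 of the pair of ULK kinases, was at 9.13, 6.09 and 6.64 FPKM in the vehicle mice and 11.99, 9.23 and 11.9 FPKM in the DS-5272 mice. All its DS-5272 values lay above the vehicle values, by a narrow margin, and the difference was 0.55 (SE 0.17, limma adjusted p = 0.0381). Rb1cc1, the scaffold protein FIP200, was at 10.7, 9.81 and 9.62 FPKM against 13.1, 12.2 and 20.8 FPKM. Its groups did not overlap either, but the difference of 0.53 (SE 0.20) was just short of the threshold (limma adjusted p = 0.0616) and passed it with the replicate block (limma adjusted p = 0.0458). Ulk1, the main initiating kinase, was at 14.8, 14.1 and 12.5 FPKM against 17.3, 14.8 and 29.2 FPKM, so DS-5272 replicate 3 stood far above the others and the 95% interval of the difference ran from -0.09 to 1.05. For Atg13, the adaptor of the complex, the interval ran from -0.08 to 0.44.

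The class III PI3-kinase complex had the lowest median of the steps, with 1 of its 6 genes, or 16.7%, called higher, below the share of all genes, and a median difference of 0.20. Uvrag, the subunit of the form of the complex that acts in endosome and autophagosome maturation, rose from 21.2, 25.4 and 24.8 FPKM to 29.0, 37.4 and 45.4 FPKM. The groups did not overlap and the difference was 0.61 (SE 0.17, limma adjusted p = 0.0269). Becn1, the Beclin 1 subunit shared by the forms of the complex, was at 51.0, 56.7 and 57.9 FPKM against 62.2, 68.3 and 81.4 FPKM, again without overlap. Its difference of 0.34 (SE 0.13) did not pass (limma adjusted p = 0.0613) but passed with the replicate block (limma adjusted p = 0.0264). The catalytic subunit Pik3c3 was at 17.0, 17.8 and 17.3 FPKM against 13.4, 15.6 and 17.0 FPKM, and Atg14, the subunit that directs the complex to autophagosome formation, was at 8.65, 8.91 and 9.15 FPKM against 7.38, 6.74 and 9.07 FPKM. Both had negative differences, of -0.18 and -0.19, and neither passed the test. The regulatory subunit Pik3r4 and the Beclin 1 partner Ambra1 had differences of 0.17 and 0.23, both short of the threshold.

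Among the genes that bring membrane and lipid to the autophagosome, 2 of 5 rose, or 40.0% beside 24.2% of all genes. Atg9a, a lipid scramblase carried on vesicles, was at 24.2, 27.1 and 25.8 FPKM in the vehicle mice and 57.6, 48.1 and 64.8 FPKM in the DS-5272 mice. The lowest DS-5272 value was well above the highest vehicle value, the mean was 2.21 times higher and the difference was 1.11 (SE 0.13, limma adjusted p = 0.00226). Atg2a, a lipid transfer protein, was at 11.8, 15.2 and 15.3 FPKM against 18.2, 26.7 and 39.1 FPKM, with a difference of 0.88 (SE 0.27, limma adjusted p = 0.0327). Its values spread widely among the DS-5272 mice but did not overlap with those of the vehicle mice. Its paralogue Atg2b was at 8.20, 7.61 and 7.52 FPKM against 7.54, 6.46 and 6.11 FPKM, with an interval of the difference from -0.46 to 0.07. The PI3P-binding proteins Wipi1 and Wipi2 had differences of 0.42 and 0.36 that did not pass. Wipi1 was at 31.8, 49.3 and 47.7 FPKM against 40.2, 52.8 and 85.2 FPKM, and its groups overlapped.

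In the conjugation step, which has the most genes, 6 of 11 or 54.5% rose, beside 24.2% of all genes, with a median difference of 0.41. With every library scaled to a common FPKM total (the common total), 2 of the 11 were called higher. That was close to the 15.4% of all genes called higher there. Atg7, the E1-like enzyme that activates both ATG12 and the LC3 proteins, was at 17.2, 21.2 and 23.8 FPKM in the vehicle mice and 37.8, 44.1 and 57.7 FPKM in the DS-5272 mice. Its mean was 2.24 times higher after DS-5272, and the difference was 1.12 (SE 0.19, limma adjusted p = 0.00543). Atg3, the E2-like enzyme that passes LC3 on to lipid, was at 45.1, 47.7 and 51.4 FPKM against 67.2, 87.3 and 98.4 FPKM, with a difference of 0.78 (SE 0.15, limma adjusted p = 0.00841). For both enzymes the groups were far apart. Atg5, which is joined to ATG12, was at 17.0, 17.7 and 20.04 FPKM against 23.9, 25.7 and 30.8 FPKM (difference 0.53, limma adjusted p = 0.0152). Atg16l1, which places the ATG12 and ATG5 conjugate on the membrane, was at 8.16, 8.37 and 7.93 FPKM against 10.9, 10.7 and 11.96 FPKM (difference 0.41, limma adjusted p = 0.0134). Its relative Atg16l2 was at 2.34, 2.38 and 2.251 FPKM against 1.66, 2.14 and 1.96 FPKM, so the groups lay apart in the opposite direction, with a difference of -0.19 that did not pass.

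The ATG4 proteases, which trim LC3 proteins before conjugation and release them afterwards, split into 2 that rose and 2 that did not pass. Atg4c was at 6.14, 5.36 and 5.51 FPKM against 9.21, 8.19 and 10.5 FPKM (difference 0.62, limma adjusted p = 0.00826), and Atg4d was at 6.80, 6.81 and 7.10 FPKM against 8.75, 9.64 and 10.3 FPKM (difference 0.42, limma adjusted p = 0.0162). These were the members of the family with the lower levels. The more abundant Atg4b was at 18.1, 17.7 and 17.5 FPKM against 18.1, 19.6 and 20.7 FPKM. Atg4a, summed over 2 entries, was at 18.4, 19.4 and 20.7 FPKM against 18.6, 18.8 and 20.9 FPKM, and the interval of its difference ran from -0.23 to 0.23. Atg12, the ubiquitin-like protein joined to ATG5, was at 36.6, 38.3 and 39.2 FPKM against 32.1, 44.0 and 45.5 FPKM, with an interval from -0.27 to 0.42, and Atg10, the E2-like enzyme for ATG12, had a difference of 0.18 that did not pass.

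The RefSeq start-site windows of 4 autophagy genes, Atg3, Atg5, Atg7 and Atg14, hold the letters CACGTG, the core of the sequence bound by TFEB, TFE3 and MITF, the transcription factors of autophagy and lysosome genes, whose own levels are given below, and by MYC, USF and other E-box proteins. These windows, which span a start site and lie mostly before it, were found for 32 of the 38 genes in build GRCm38.p6. The letters CACGTG, which read the same on both strands, stood in 4 of the 32, or 12.5%, and in 8.09% of all genes with a window. The longer TCACGTG, read on both strands and containing CACGTG, stood in Atg3, Atg7 and Atg14, or 9.38% of the 32, against 4.29% of all genes. A match describes letters and is no evidence of binding. The windows of Atg7 and Atg14 lie inside those genes as GENCODE draws them, downstream of the GENCODE gene start. The stretches around the matches are shown because they carry the letters in genes of the conjugation step, 3 of which rose, and in Atg14, which did not pass. Each is written in the direction of its gene, with CACGTG in capitals.
Atg3, chr16:45158708-45158790, plus strand: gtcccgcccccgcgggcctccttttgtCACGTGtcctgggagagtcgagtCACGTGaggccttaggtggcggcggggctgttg
Atg5, chr10:44268298-44268357, plus strand: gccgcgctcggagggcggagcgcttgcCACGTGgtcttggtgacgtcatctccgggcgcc
Atg7, chr6:114670937-114670996, plus strand: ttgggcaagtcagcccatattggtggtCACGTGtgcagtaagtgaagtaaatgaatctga
Atg14, chr14:47568415-47568462, minus strand: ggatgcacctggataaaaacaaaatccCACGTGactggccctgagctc
Atg3 held 2 copies and the other three genes held 1 each. Of the genes with the largest differences, Dram2, Atg9a, Gabarap and Gabarapl2 had windows without these letters.

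In the LC3 family, 3 of 5 genes rose, or 60% beside 24.2% of all genes, and the median difference was 0.81. The same count held under the common total, beside 15.4% of all genes. Gabarap was at 53.7, 60.7 and 61.0 FPKM in the vehicle mice and 94.1, 99.0 and 138 FPKM in the DS-5272 mice. Gabarapl2, also called GATE-16, was at 22.3, 20.9 and 22.5 FPKM against 35.6, 36.4 and 45.7 FPKM. Neither gene's groups overlapped, the means were 1.89 and 1.79 times higher, and the differences were 0.89 (SE 0.16) and 0.81 (SE 0.12), with limma adjusted p = 0.00694 and 0.00412. Map1lc3b, the LC3B protein commonly used to mark autophagosomes, was at 53.4, 64.0 and 65.3 FPKM against 75.9, 88.8 and 132 FPKM, with a difference of 0.66 (SE 0.21, limma adjusted p = 0.0404). Its DS-5272 replicate 3 stood above the others, and the difference was 0.43 without that mouse. Map1lc3a was at 4.47, 13.1 and 15.0 FPKM against 13.4, 20.03 and 32.3 FPKM. Its groups overlapped, DS-5272 replicate 1 lying below vehicle replicate 3, and vehicle replicate 1 was far below the other vehicle mice. The difference of 1.01 had a 95% interval from -0.11 to 2.13 (limma adjusted p = 0.118), and it passed with the replicate block (limma adjusted p = 0.0052). Gabarapl1 was at 12.3, 12.7 and 12.9 FPKM against 12.1, 14.0 and 15.9 FPKM, with an interval from -0.15 to 0.41.

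The receptors that tie cargo to LC3 proteins had 2 of 4 genes called higher, or 50%, beside 24.2% of all genes. Under the common total it was 1 of 4, beside 15.4% of all genes. Sqstm1, which encodes p62 and had the highest level of the 37 genes, was at 72.5, 109 and 120.2 FPKM in the vehicle mice and 108, 227 and 295 FPKM in the DS-5272 mice. DS-5272 replicate 1 fell within the vehicle range while the other two mice were far above it. The difference was 0.97 (SE 0.38) and did not pass (limma adjusted p = 0.0763). It passed with the replicate block (limma adjusted p = 0.00418), and it passed without DS-5272 replicate 1, where it was 1.39 (limma adjusted p = 0.0101). Calcoco1, a receptor for the endoplasmic reticulum and Golgi, rose from 4.24, 4.71 and 3.93 FPKM to 7.74, 6.92 and 12.3 FPKM (difference 0.88, SE 0.20, limma adjusted p = 0.0139). Nbr1, a relative of p62, was at 19.4, 14.6 and 14.8 FPKM against 26.3, 19.3 and 31.1 FPKM (difference 0.61, SE 0.20, limma adjusted p = 0.0411). Nbr1 was the only called gene of the 17 whose groups overlapped, vehicle replicate 1 lying just above DS-5272 replicate 2. Optn, a mitophagy receptor and the gene with the lowest level, was at 1.21, 1.44 and 1.26 FPKM against 1.14, 0.833 and 0.559 FPKM, with a difference of -0.33 that did not pass (limma adjusted p = 0.136). It passed as lower without DS-5272 replicate 1, at -0.45 (limma adjusted p = 0.0497).

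**Figure D2:**
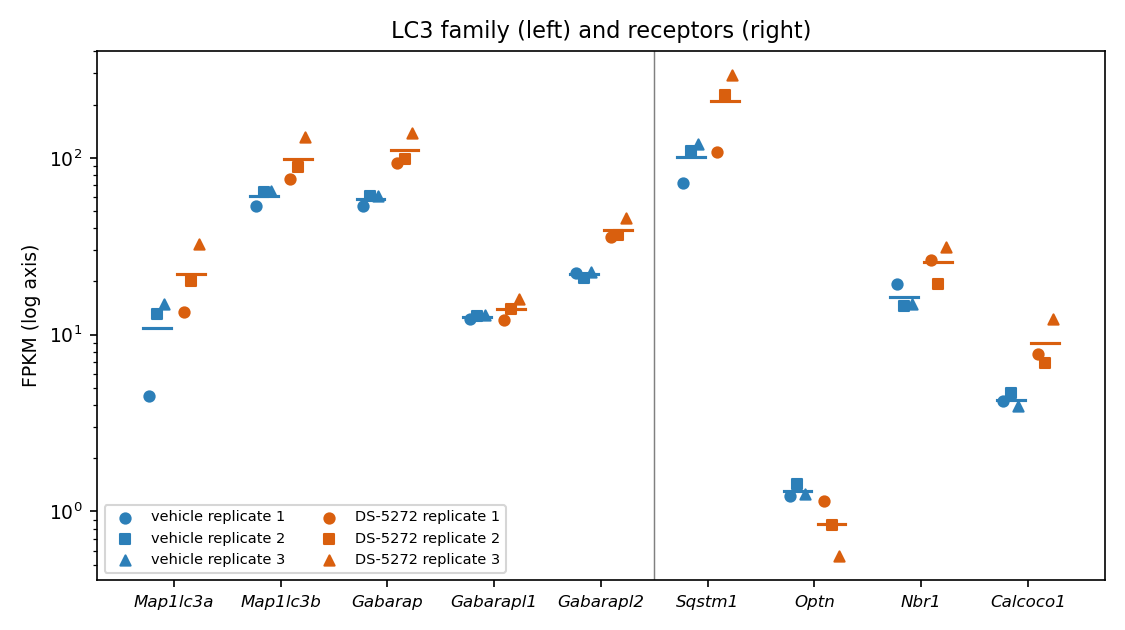
FPKM on a log axis of the 5 LC3 family genes and the 4 receptors in the 3 vehicle mice (blue) and the 3 DS-5272 mice (orange), with bars at the group means and 1 symbol shape for each replicate number. Gabarap and Gabarapl2 show a clear gap between groups, Map1lc3a and Sqstm1 overlap with their lowest value in vehicle replicate 1, and the Gabarapl1 values, 12.1 to 15.9 FPKM over the 6 mice, overlap.

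Both genes of the lysosomal and late step rose, where 24.2% of all genes did. Dram2, a lysosomal membrane protein related to the p53 target DRAM1, was at 10.9, 10.6 and 9.93 FPKM in the vehicle mice and 33.8, 25.7 and 34.4 FPKM in the DS-5272 mice. It had the largest difference of the 37 genes, 1.48 (SE 0.13, limma adjusted p = 0.00117), and its mean was 2.99 times higher. Its high values were shared by all 3 DS-5272 mice and replicate 1 was as high as replicate 3. Dram1 itself, counted below among the genes for fusion with the lysosome, was at 15.6, 18.1 and 19.15 FPKM against 22.2, 19.24 and 22.3 FPKM. The Dram1 difference of 0.26 did not pass (limma adjusted p = 0.106). Tecpr1, which links autophagosomes to lysosomes, was at 2.88, 2.69 and 3.06 FPKM against 5.77, 5.07 and 6.70 FPKM (difference 0.81, SE 0.13, limma adjusted p = 0.0047).

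In GRCm38 (GENCODE vM21), Dram2 lies at chr3:106547798-106575890 on the plus strand, Atg9a at chr1:75180860-75192196 on the minus strand, Atg7 at chr6:114643097-114860614 on the plus strand, Gabarap at chr11:69991143-69994951 on the plus strand and Gabarapl2 at chr8:111940703-111953612 on the plus strand. All are protein-coding genes and the values cover their exons. Exons of Atg9a overlap those of Ankzf1 on the opposite strand and of Gm29253 on the same strand over 1878 bases, exons of Uvrag overlap a gene on the opposite strand over 1589 bases, and exons of Atg4d overlap Kri1 over 1405 bases. Becn1 overlaps Cntd1 over 3104 bases and Sqstm1 overlaps Mrnip over 580 bases, while Dram2 overlaps Cept1 over only 5. The libraries were strand-specific, but the counting was not stated to use strand, so reads of these partners could not be told apart for certain.

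Differences between paralogues were read from ratios of FPKM within each mouse, which multiplying a library by a factor cannot change. Quantile normalization is no such factor and can change them. Of 14 pairs from 7 families, 8 had ratios that did not overlap between the groups, or 57.1%, where 61.9% of all pairs of tested genes did, so such separation was no more common here than elsewhere. Atg2a over Atg2b was 1.44, 1.99 and 2.03 in the vehicle mice and 2.41, 4.13 and 6.40 in the DS-5272 mice. Atg16l1 over Atg16l2 was 3.49, 3.52 and 3.52 against 6.56, 5.02 and 6.10, and Gabarap over Gabarapl1 was 4.36, 4.79 and 4.72 against 7.79, 7.08 and 8.67. Each ratio was written so that its mean was higher in the DS-5272 mice, which fixes the direction by construction. In these 3 pairs, shown out of the 8, the groups did not overlap (exact permutation p = 0.1 for each, two-sided, the smallest possible). Gabarap over Gabarapl2 was 2.41, 2.90 and 2.71 against 2.64, 2.72 and 3.01, so these paralogues kept overlapping ratios (exact permutation p = 0.5). The ratios of Map1lc3a to Map1lc3b, Ulk2 to Ulk1 and Wipi1 to Wipi2 overlapped as well (exact permutation p = 0.6, 0.7 and 0.7).

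The genes did not rise evenly across the 3 DS-5272 mice. Replicate 3 of the DS-5272 mice held the highest of the 6 values for 31 of the 37 genes, or 83.8%, and for 40.0% of all genes tested. Once every library was scaled to a common FPKM total, it held the highest value for 35.1% of the autophagy genes and 15.7% of all genes. The summed FPKM of the 37 genes was 701, 793 and 818 in the vehicle mice and 984, 1175 and 1544 in the DS-5272 mice. As a share of each library's FPKM total, that was 0.157%, 0.161% and 0.163% against 0.197%, 0.203% and 0.234%. The neutrophil marker sum ran in the same order over the 6 mice, at 466, 1981 and 2633 FPKM and then 5180, 12895 and 21607 FPKM, and its part in the autophagy values was not tested. Without DS-5272 replicate 3 the median difference of the autophagy genes was 0.37, with 14 called higher and 1, Atg14, called lower. Over the 11130 genes tested in that fit the median was 0.0005, with 2237 called higher and 2195 lower.

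**Figure D3:**
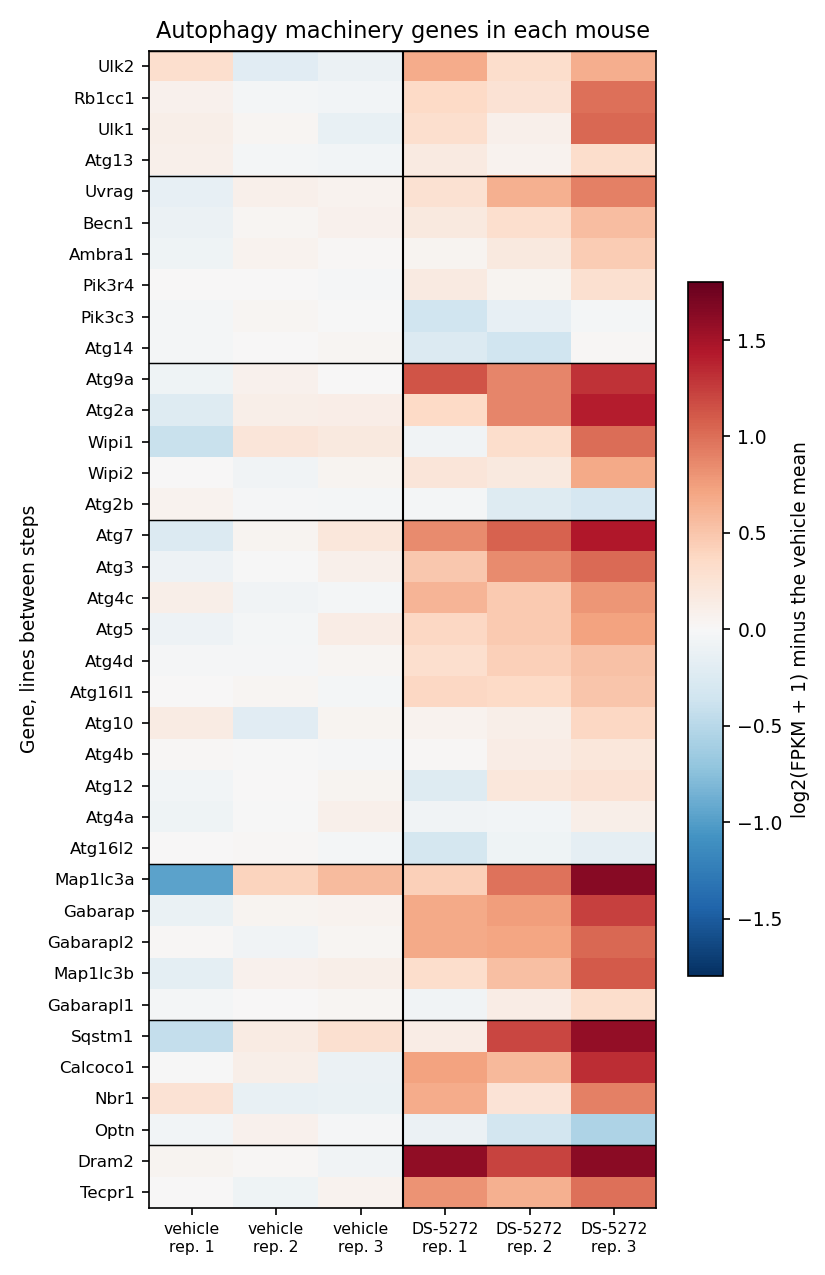
Each of the 37 genes (one line per gene, grouped by step) in each of the 6 mice, as log2(FPKM + 1) minus the mean of the vehicle mice, with red above and blue below that mean. The DS-5272 columns are mostly red and deepest in replicate 3, and vehicle replicate 1 is pale to blue for Map1lc3a, Sqstm1 and Wipi1.

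How many genes passed depended on the scaling of the libraries. As deposited, 52.4% of all called genes were higher, and with every library scaled to the same FPKM total 32.5% were, since that step lowered the median of all genes from 0.04 to -0.19. With the common total, 11 of the autophagy genes were called higher, against 15.4% of all genes, and 2, Pik3c3 and Atg14, were called lower, against 31.9%. With a common upper quartile, 15 were called higher, against 20.8% of all genes, and 1, Pik3c3, lower, against 26.2%. With quantile normalization 16 were called higher, against 21.7%, and 1, Optn, lower, against 28.2%. The distance between the median of the autophagy genes and that of all genes stayed between 0.42 and 0.46 over the 5 scalings. The genes called higher under all of them were Uvrag, Atg9a, Atg2a, Atg3, Atg7, Map1lc3b, Gabarap, Gabarapl2, Calcoco1, Dram2 and Tecpr1. Under the common total the other six, Ulk2, Atg4c, Atg4d, Atg5, Atg16l1 and Nbr1, had differences of 0.31, 0.39, 0.18, 0.27, 0.17 and 0.35. The differences of Atg3, Uvrag and Map1lc3b fell to 0.52, 0.35 and 0.39 there and still passed. Atg13, Pik3r4, Ambra1, Atg4b, Atg10, Atg12 and Gabarapl1, positive but not called as deposited, had negative differences under the common total.

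**Figure D4:**
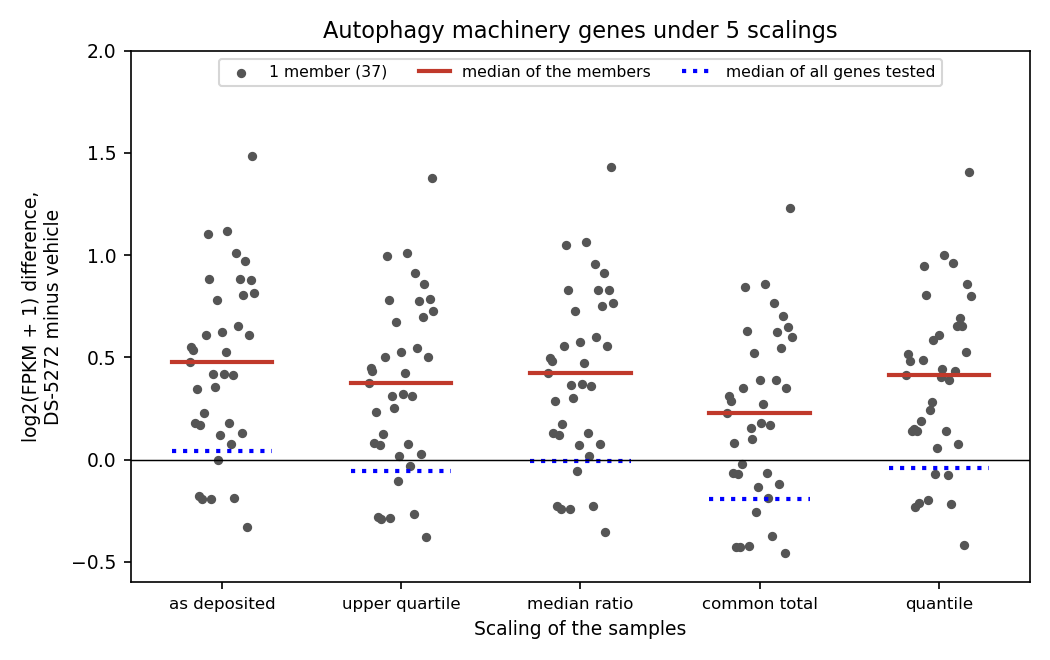
Differences in log2(FPKM + 1), DS-5272 minus vehicle, of the 37 genes (points) under the deposited scaling and 4 others, with the median of the genes (red) and of all genes tested (blue dots). Both medians fall together under the common total, to 0.23 and -0.19.

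Leaving out single mice narrowed the list further. The calls of 8 genes, Atg9a, Atg3, Atg4c, Atg7, Gabarap, Gabarapl2, Dram2 and Tecpr1, held whichever mouse was left out. Ulk2 and Nbr1 lost theirs without vehicle replicate 2 or 3 or without DS-5272 replicate 1 or 3. Uvrag and Atg2a lost theirs without any 1 of the vehicle mice and without DS-5272 replicate 2 or 3, and Map1lc3b without any 1 of the vehicle mice or DS-5272 replicate 2. Atg4d was lost without any 1 of the vehicle mice, Atg5 without vehicle replicate 1 or 2, Atg16l1 without vehicle replicate 2 or 3, and Calcoco1 without vehicle replicate 3. The highest limma adjusted p of these 9 genes with 1 mouse left out was 0.13, for Nbr1, and every such difference stayed positive. With the replicate number as a block the count was 21 of 37, against 30.3% of all genes, and 0 were lower, against 24.9%. The 17 genes were joined there by Rb1cc1, Becn1, Map1lc3a and Sqstm1.

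Outside the machinery itself, 72 further autophagy genes in 5 groups were measured, of which 29 rose and 2 fell, or 40.3% and 2.78%, beside 24.2% and 22.0% of all genes tested. Their median difference was 0.30, beside 0.04 for all genes. Of 85 symbols in these groups, 72 passed the filter. The transcription factors and cofactors of autophagy and lysosome genes had 10 of 13, or 76.9%, higher and 0 lower, with a median of 1.02. Under the common total 7 stayed higher, where 15.4% of all genes were called higher. Trp53inp2, also known as DOR, a nuclear cofactor that takes part in autophagy, was at 3.93, 5.598 and 6.43 FPKM in the vehicle mice and 18.8, 24.4 and 37.96 FPKM in the DS-5272 mice (difference 2.11, SE 0.27, limma adjusted p = 0.00289). Its relative Trp53inp1 had a difference of 1.85 (SE 0.54, limma adjusted p = 0.0294). The MiT family factors were picked out after their values were seen, and 3 of them rose. Tfe3 was at 14.6, 15.5 and 15.9 FPKM against 31.4, 38.4 and 45.9 FPKM (difference 1.26, limma adjusted p = 0.00219). Tfeb, a regulator of lysosome genes, was at 5.61, 7.06 and 6.85 FPKM against 11.3, 15.4 and 16.8 FPKM (difference 1.04, limma adjusted p = 0.00493). Mitf, better known from pigment cells, was at 1.65, 1.44 and 1.85 FPKM against 4.51, 4.87 and 6.00 FPKM (difference 1.21, limma adjusted p = 0.00222). In all 3 the lowest DS-5272 value exceeded the highest vehicle value. Tfec, the family's remaining member, had a difference of -0.10 that did not pass.

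Among the MTORC1, AMPK and TSC genes, which set the nutrient and energy input to autophagy, 8 of 22, or 36.4%, rose and 0 fell. All genes tested had 24.2% higher and 22.0% lower, and the median difference of the 22 genes was 0.28. Under the common total 5 were called higher and 3, Prkag1, Mlst8 and Deptor, lower, beside 15.4% and 31.9% of all genes. The largest differences there were those of Sesn2 and Sesn3, which encode sestrins, stress-induced inhibitors of MTORC1. Sesn2 was at 7.79, 6.98 and 6.81 FPKM against 20.3, 24.2 and 52.7 FPKM (difference 1.91, SE 0.33, limma adjusted p = 0.00593), and Sesn3 had a difference of 1.05 (SE 0.25, limma adjusted p = 0.0161). Sesn3 averaged 0.433 FPKM in the vehicle mice and 1.99 FPKM in the DS-5272 mice, so it was tested only because of its DS-5272 values. Sesn1, the remaining sestrin, had a difference of 0.42 that did not pass (limma adjusted p = 0.145). Of 10 further core and PI3P factors, 3 rose and 1 fell, where 24.2% of all genes were called higher and 22.0% lower. Sh3glb1, the Beclin 1 partner Bif-1, rose from 24.7, 23.4 and 19.1 FPKM to 64.9, 76.0 and 109.7 FPKM (difference 1.83, SE 0.21, limma adjusted p = 0.00211), and Zfyve1, a PI3P-binding protein, had a difference of 0.78 (limma adjusted p = 0.0111). Tmem41b, a lipid scramblase needed for autophagosome formation, fell from 5.61, 5.06 and 5.51 FPKM to 3.64, 4.06 and 3.33 FPKM (difference -0.45, SE 0.11, limma adjusted p = 0.0174).

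Of 13 further receptors, 3 rose and 1 fell, with a median of 0.21. The share of higher calls, 23.1%, was near the 24.2% of all genes, and that of lower calls was 7.69%, beside 22.0%. Ccpg1, a receptor for the endoplasmic reticulum, and Wdfy3, a scaffold for protein aggregates, had differences of 1.16 and 0.66 (limma adjusted p = 0.0117 and 0.0237). Phb2, an inner mitochondrial membrane protein that serves as a mitophagy receptor and has other roles in mitochondria, fell from 133, 143 and 141 FPKM to 87.5, 104 and 74.8 FPKM (difference -0.65, SE 0.14, limma adjusted p = 0.00994). Of 14 genes for fusion with the lysosome, 5, or 35.7%, rose and 0 fell, beside 24.2% and 22.0% of all genes. Plekhm1, an adaptor between autophagosomes and lysosomes, was at 14.6, 15.96 and 15.2 FPKM against 25.4, 24.3 and 31.4 FPKM (difference 0.78, limma adjusted p = 0.00448), and Snap29, a SNARE of that fusion, had a difference of 0.62 (limma adjusted p = 0.00886). Under the common total 1 of these 14, or 7.14%, was called higher, below the 15.4% of all genes. Over all 5 groups 16 of 72 were then higher and 5 lower, where 15.4% and 31.9% of all genes were.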

How the data were processed

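RNA-Seq was done on sorted leukemia cells of 6 mice, 3 per group. Per the labels and the study's methods, the authors made strand-specific libraries, trimmed reads with cutadapt (1.8.1), aligned them to GRCm38 transcripts with TopHat2 (2.1.1) and computed FPKM with Cufflinks (2.2.1). The deposited FPKM are already divided by transcript length and library size and hold no read counts, so no count model was used. The table had 26632 entries. The 435 names on several lines were summed and 433 entries joining several genes were kept under their joined names. Whether counting used strand is not given in the sources used here.

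Groups were compared with limma 3.58.1 in R 4.3.3 (two-sided, variance trended on the mean) on log2(FPKM + 1) over 11130 genes averaging 1 FPKM or more, with Benjamini-Hochberg adjustment over these genes and a threshold of 0.05. Differences on this scale understate changes of low genes. Fragments per library were estimated from the steps between FPKM values under 0.15. They are rough and no counts were rebuilt from them. Replicates are separate mice. Deviations from the group means of mice with the same replicate number correlated at 0.66, 0.21 and 0.43 over genes, each above 0.1, and other pairs at -0.58 to 0.34. The value for number 2 lay within the range of the other pairs, so these correlations do not settle a pairing. The labels do not say what a number marks. A fit with a replicate block, which treats the numbers from the sample titles as pairing the mice, was run as an alternative. Calls found only there rest on that assumption. Promoters came from RefSeq and gene positions from GENCODE, both on GRCm38, read with Python 3.11.15.

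The autophagy genes, further lists and markers were chosen with earlier results of these data known, so the lists carry no test of their own. Named with values in each sample were genes past the threshold, all LC3 family genes and receptors, the genes with the highest and lowest level, and genes whose groups did not overlap with a difference of at least 0.5. Others were added for contrast after their values were seen. Of the further lists, the 2 genes with the largest called difference in each direction were named. Alternatives were a pseudocount of 0.1, no filter or a mean of at least 5 FPKM, 4 other scalings, the block, eBayes without the trend, a size limit of 1 on the difference, and leaving out each mouse. The limma step was tested on simulated data, where it called 63% of planted differences of size 1 and 89% of size 2. Few genes were changed there, so recovery in the real data may differ. A gene that did not pass may still differ between the groups. A further marker list is not reported here.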

Additional observations from a re-analysis of the deposited data

How the results depend on the processing

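The count of 17 autophagy genes called higher was 11 under the common total, 3 when a difference of at least 1 was also required (Atg9a, Atg7 and Dram2), and 9 to 17 with 1 mouse left out, lowest without vehicle replicate 2 or 3. The count called lower, 0, became 1 under the upper quartile, 2 under the common total, 1 under quantile normalization and 0 to 1 with 1 mouse left out. The median of 0.48 was 0.23 under the common total and 0.37 to 0.56 with 1 mouse left out, and the median of the PI3-kinase genes turned from 0.20 to -0.045 under the common total. The replicate block, which assumes that equal numbers pair the mice, gave 21 higher and 0 lower, and removed no call of the 17. Of the further autophagy genes, 29 higher became 16 under the common total, 11 under the size limit and 16 to 28 with 1 mouse left out. The 2 lower became 1 with the filter at 5 FPKM, 4 under the upper quartile, 5 under the common total, 4 with the replicate block, 0 under the size limit and 1 to 3 with 1 mouse left out. Without the filter, 13 autophagy genes were called higher, Ulk2, Atg2a, Map1lc3b and Nbr1 being lost. Of the 18149 genes tested there, 2651 were called higher and 2478 lower. Over all genes, 2697 higher and 2451 lower became 1713 and 3555 under the common total, and 978 and 621 under the size limit. With 1 mouse left out, the counts were 1641 to 2939 higher and 1408 to 2441 lower, both lowest without vehicle replicate 2. The size limit can only lower counts by its construction, and for the other settings the cause was not tested. With 3 mice per group, no fragment counts and shallower DS-5272 libraries, genes near 1 FPKM, such as Optn, rest on the fewest fragments per kilobase. The filter at 5 FPKM dropped Optn, Atg16l2 and Tecpr1.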
